A study of Mus musculus with 4 samples.

Results

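Gene expression in intestinal tumor organoids with Dnmt1 knockdown was compared with that in organoids carrying the control shRNA vector, on 1 array each at day 9 after lentivirus infection. Every named probe with a deposited value on both arrays was taken, which gave 13705 probes of 13573 genes, or 82.4% of the 16631 named probes among 23473 probes on the array. Both cultures were grown from polyps of ApcMin mice, which carry a mutant allele of the Wnt pathway inhibitor Apc, in Matrigel with serum-free medium containing EGF and noggin. The knockdown culture received a GIPZ lentiviral shRNA against Dnmt1 and the other culture the empty GIPZ vector, and both were selected with puromycin. The remaining 2 arrays of the series, an untreated control and organoids at day 4 after 1 μM 5-Aza-CdR, were used only to show levels beside those of the compared arrays. Each culture was a pool of infected organoids, and the empty vector carries no hairpin, so an effect of any hairpin cannot be told apart from that of Dnmt1 loss. Since neither condition was repeated, differences are given as sizes only, without error or test.

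Dnmt1 is the maintenance DNA methyltransferase, which copies CpG methylation onto the new DNA strand after replication. In its absence methylation is diluted as cells divide, and transcripts of germline genes, imprinted genes and endogenous retroviruses can appear. Double-stranded RNA from such repeats can be bound by cytosolic sensors, which lead to type I and type III interferon, and interferon receptors then switch on a large set of interferon-stimulated genes.

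Probes were kept apart in 3 tiers of signal, by the geometric mean of both intensities. Near background (no more than 3.92, the mean over both arrays of the 95th percentile of spots without probe) lay 1667 probes (12.2%), 8115 probes (59.2%) were in the middle, and 3923 probes (28.6%) were bright, with a geometric mean of at least 100. A probe of the middle tier could lie under the limit of 3.92 on 1 array if its value on the other was high enough. The bright tier held 90.3% of the knockdown signal. The median log2 ratio of knockdown over control was 0.51 near background, 0.20 in the middle and 0.05 in the bright tier, so ratios are given on the log2 scale after the median of the tier was subtracted (centred), unless called uncentred. Without centring, 68.6% of all probes were above 0, and 596 were at least 2-fold higher against 104 lower.

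**Figure D1:**
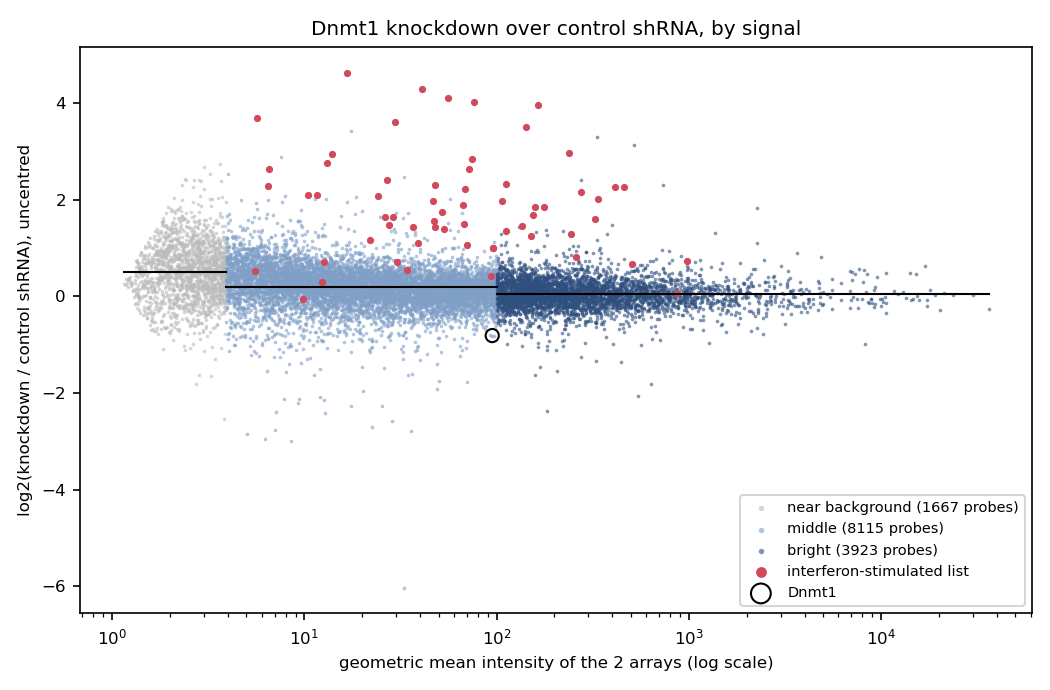
Uncentred log2 ratio of Dnmt1 knockdown over control shRNA (vertical axis) against the geometric mean intensity of both arrays (horizontal, log scale), 1 point per named probe, with black lines at the tier medians of 0.51, 0.20 and 0.05. Red points are interferon-stimulated genes outside the near-background tier and the open circle is Dnmt1, at an uncentred log2 ratio of −0.81.

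Spread depended on signal. The central 90% of centred ratios ran from −0.94 to 0.96 near background, from −0.66 to 0.63 in the middle and from −0.44 to 0.51 in the bright tier. Between probes of the same gene the ratio had an SD of 0.35 over 55 pairs in the middle tier, where 4 pairs differed by 1 or more, and of 0.18 over 29 pairs in the bright tier, where the largest difference was 0.79. These pairs measure technical spread within 1 hybridisation and not the spread between cultures. The 48 positive control spots had a median uncentred log2 ratio of −0.02 and an SD of 0.19.

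A centred change of at least 2-fold was the rule for a probe called higher or lower. Near background 4.38% of probes were higher and 4.2% lower, in the middle tier 1.64% and 1.65%, and in the bright tier 0.969% (38 probes) and 0.561% (22 probes). Of the called probes 63.3% were on the higher side in the bright tier and 49.8% in the middle tier. These shares depended on scaling, with 51.7% and 54.1% when all probes shared 1 median, 71.4% and 75% without centring, and 73.2% and 68.0% after normexp correction with quantile normalization over 4 arrays. With local background subtracted they were 39.8% and 36.2%, so the larger side turned in the bright tier. At 4-fold, 11 bright probes were higher and 2 lower, while the middle tier held 19 of each. With 1 probe per gene, 169 of 11926 genes of the middle and bright tiers were higher (1.42%) and 154 lower (1.29%). These counts and shares include middle genes with a value under the near-background limit on 1 array, which entered the tier through the other array. Examples are Fap (3.51 with control shRNA and 8.19 with the knockdown) and Sgce (13.6 and 1.89). Calls of this kind rest on a dim spot.

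Dnmt1 itself, measured by a probe of the middle tier, had 239 units of intensity in the untreated control, 368 after 5-Aza-CdR, 126 with control shRNA and 71.7 with the knockdown. The knockdown value was the lowest of the 4 arrays, and that of the control shRNA array was itself below the untreated control. The log2 ratio was −0.81 uncentred, a 1.75-fold decrease, and −1.01 centred. It lay at the 2-fold limit and was −0.68 after normexp correction over 4 arrays and −0.89 after the drift over the array described further on was removed. Among reference genes, Actb had 8196 with control shRNA and 6972 with the knockdown (−0.28), Gapdh 69.4 and 58.9 (−0.44) and Tbp 93.4 and 95 (−0.17).

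Of the 15 bright genes with the highest ratios, 11 were on the list of interferon-stimulated genes. Oas1a, a synthetase of 2′-5′ oligoadenylates that is switched on by double-stranded RNA, had intensities of 8.51 in the untreated control, 658 with 5-Aza-CdR, 41.5 with control shRNA and 651 with Dnmt1 knockdown. Both controls were low and both treated cultures were high, and the centred log2 ratio of knockdown over control was 3.93. Usp18, a protease that removes the ubiquitin-like Isg15 and dampens interferon receptor signalling, had 50.5, 634, 42.4 and 482 on the same arrays (3.46). Rsad2 (viperin), an antiviral enzyme of the endoplasmic reticulum, had 44.5, 163, 84.8 and 661 (2.92). The knockdown array was thus the highest of the 4 for Rsad2, while Usp18 was highest with 5-Aza-CdR.

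Cxcl10, a chemokine that draws T cells, had 6.73 in the untreated control, 62.9 with 5-Aza-CdR, 50.3 with control shRNA and 252 with the knockdown (2.28). Here the control shRNA level was close to that of 5-Aza-CdR and several-fold above the untreated control. Irgm (Irgm1), an immunity-related GTPase, had 132, 872, 188 and 905 in that order (2.22), and Rtp4, a receptor transporter protein, 138, 667, 209 and 1003 (2.22). D11Ertd759e (Rnf213), a ubiquitin ligase, had 138, 662, 129 and 580 (2.12). For these 3 genes the controls lay within about the same range and both treated arrays well above it. Oasl1 (1.98), Parp9 (1.94), Bst2 (tetherin, which holds budding virions at the cell surface, 1.81) and Ifi35 (1.80) followed.

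Interferon-stimulated genes were higher as a group in the knockdown. Of 80 listed genes 65 had a value on both arrays, of which 3 lay near background and 62 in the middle and bright tiers. The median of these 62 was 1.67 against 0 by construction for all genes of a tier, and 61 were above 0. At least 2-fold higher were 46 (74.2%, against 1.42% of all genes of these tiers), and none was lower. The exception below 0 was AK220210 (Nlrc5), a transactivator of MHC class I genes, at 9.99 and 9.61 (−0.25). In the middle tier the largest ratios were those of Trim30 (Trim30a), a tripartite motif protein, at 3.33 with control shRNA and 82.7 with knockdown (4.43), of Oas2 at 9.22 and 182 (4.10), of Ifi44 at 13.5 and 234 (3.92), of Ifit3 at 18.9 and 306 (3.82) and of Sp100, a nuclear body protein, at 1.58 and 20.5 (3.50). The control values of Trim30 and Sp100, and of Slfn4 (2.61 and 16.4, 2.45) and Oas1b (2.93 and 14.3, 2.09), lay under the near-background limit. The size of each of these ratios rests on a dim spot, and the 46 higher genes include them. Ifit1, which binds viral RNA ends, stood at 9.9 and 16.3 (0.52), below the 2-fold rule. Members of the Oas, Ifit, Gbp and Apol9 families are close in sequence and a probe may also take signal from a relative. The median of the list stayed between 0.82 and 1.80 in the alternatives tried.

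**Figure D2:**
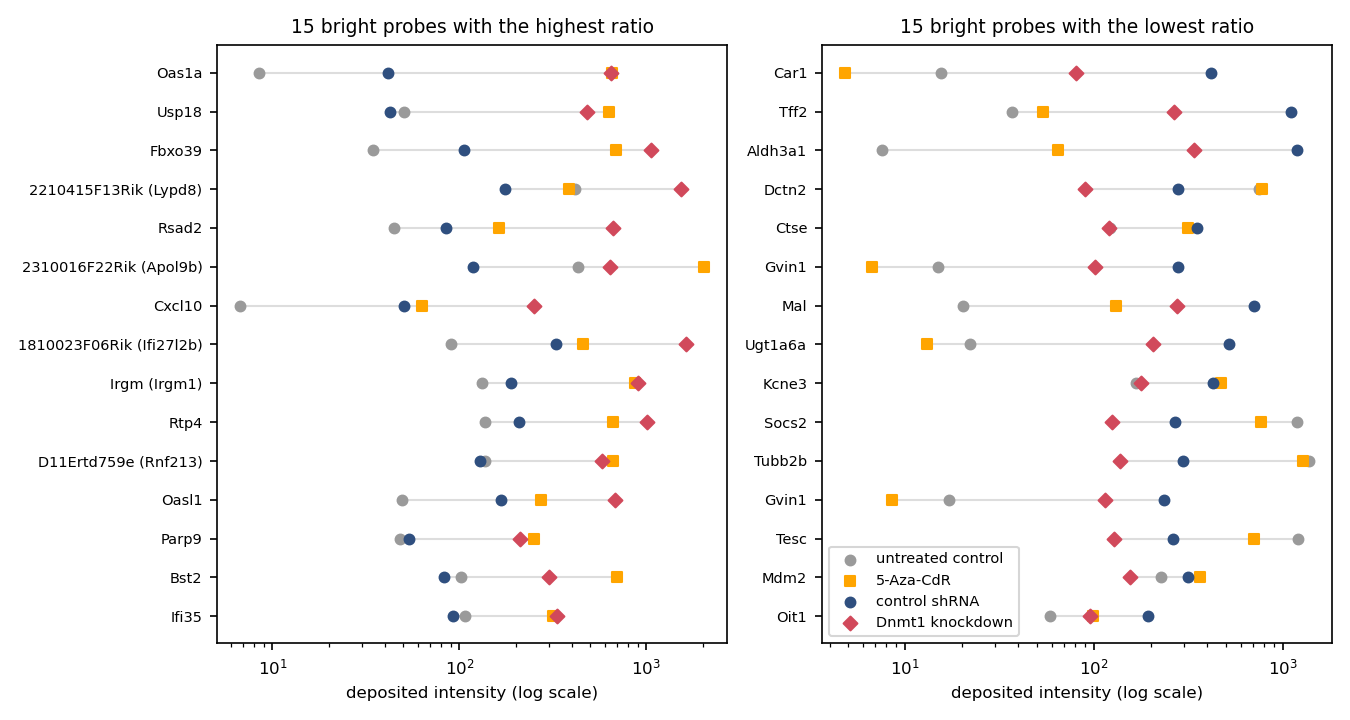
Deposited intensity (horizontal, log scale) on each of the 4 arrays for the 15 bright probes with the highest and the 15 with the lowest centred ratio of knockdown over control shRNA, with a grey line joining the lowest and highest array. Knockdown (diamond) exceeds control shRNA in the left panel, as for Oas1a at 651 against 41.5, and in the right panel several genes, such as Car1 at 419 with control shRNA and 15.6 in the untreated control, were lowest in the untreated or 5-Aza-CdR cultures.

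Promoter letters were compared next, because interferon-stimulated genes are known for a shared response element in their promoters. It was searched on both strands as the letters GAAA, then any 2 bases, then GAAA again, in windows from 250 bases before to 50 bases after the start of each gene from RefSeq (GRCm38.p6). Windows of 4 bright genes and 1 middle gene that hold it, with the match in capitals, and 1 that does not, are shown to put the letters beside the ratios. They are the windows of Oas1a (chr5:120907476-120907775, minus strand), Rsad2 (chr12:26456403-26456702, minus strand), Irgm1 (chr11:48871371-48871670, minus strand), Bst2 (chr8:71537423-71537722, minus strand), Ifit3 (chr19:34583279-34583578, plus strand) and Fbxo39 (chr11:72314194-72314493, plus strand).
Oas1a: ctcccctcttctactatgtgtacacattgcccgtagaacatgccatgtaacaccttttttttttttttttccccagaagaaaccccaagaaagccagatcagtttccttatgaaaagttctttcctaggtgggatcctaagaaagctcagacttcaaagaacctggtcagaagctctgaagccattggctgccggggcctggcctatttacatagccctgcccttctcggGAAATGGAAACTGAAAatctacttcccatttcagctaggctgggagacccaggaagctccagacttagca
Rsad2: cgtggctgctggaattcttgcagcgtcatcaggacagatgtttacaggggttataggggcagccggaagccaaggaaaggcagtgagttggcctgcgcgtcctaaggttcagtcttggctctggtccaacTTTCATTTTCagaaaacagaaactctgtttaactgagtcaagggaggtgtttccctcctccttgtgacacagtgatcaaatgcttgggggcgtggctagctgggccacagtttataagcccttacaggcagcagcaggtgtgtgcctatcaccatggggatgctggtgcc
Irgm1: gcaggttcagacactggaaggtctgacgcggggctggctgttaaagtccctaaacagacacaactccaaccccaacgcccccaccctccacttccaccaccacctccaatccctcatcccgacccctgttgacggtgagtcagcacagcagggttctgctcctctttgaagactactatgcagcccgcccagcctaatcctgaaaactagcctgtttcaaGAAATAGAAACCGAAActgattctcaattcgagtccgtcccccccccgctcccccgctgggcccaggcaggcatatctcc
Bst2: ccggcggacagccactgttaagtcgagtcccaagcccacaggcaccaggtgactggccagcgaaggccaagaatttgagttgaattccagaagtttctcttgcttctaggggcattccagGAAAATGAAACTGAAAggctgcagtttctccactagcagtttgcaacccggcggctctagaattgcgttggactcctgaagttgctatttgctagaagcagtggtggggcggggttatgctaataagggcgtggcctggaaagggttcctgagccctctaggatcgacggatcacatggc
Ifit3: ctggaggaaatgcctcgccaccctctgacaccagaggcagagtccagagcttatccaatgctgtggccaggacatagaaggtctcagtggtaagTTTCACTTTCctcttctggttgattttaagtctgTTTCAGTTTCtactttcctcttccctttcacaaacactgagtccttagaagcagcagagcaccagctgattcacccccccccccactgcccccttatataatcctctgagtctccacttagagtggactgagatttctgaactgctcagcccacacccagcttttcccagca
Fbxo39: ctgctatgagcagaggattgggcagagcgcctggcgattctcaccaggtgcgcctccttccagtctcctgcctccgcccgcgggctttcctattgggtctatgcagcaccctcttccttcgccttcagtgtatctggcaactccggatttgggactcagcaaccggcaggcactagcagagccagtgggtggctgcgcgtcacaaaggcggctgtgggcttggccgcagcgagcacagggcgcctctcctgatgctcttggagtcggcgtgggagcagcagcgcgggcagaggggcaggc
The Oas1a window held 2 overlapping matches, the first starting 20 bases before the gene start, where Irgm1 likewise held 2 from 30 bases before it. In Rsad2 the single match began 120 bases before the start and in Bst2 the first of 2 began 130 bases before it, while Fbxo39 held none in this window.

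Of the higher bright genes with a RefSeq window, 11 of 29 (37.9%) held the letters, against 3.38% of all bright genes and none of the 13 lower ones. Over the middle and bright tiers the share was 16.8% of 125 higher genes, 5.08% of 118 lower genes and 3.53% of all genes, and 3.44% of all 32851 windows held it. It was 41.7% of 36 higher genes from the lists of interferon-stimulated, sensing and MHC class I genes and 6.74% of the 89 other higher genes. The ratio of observed to expected CpG had a median of 0.41 in higher, 0.57 in lower and 0.76 in all genes of these tiers, and 0.50, 0.50 and 0.82 in the bright tier. With a 3-fold limit it was 0.40 in 41 higher and 0.37 in 25 lower genes, so the order of higher and lower genes turned. The share with the letters was then 29.3% of higher and 4% of lower genes. Over all 32851 single windows, of genes measured or not, the median was 0.38. The gene sets took the highest window of each gene instead, so this value is not on the same measure. A match is a description of letters and not a bound site.

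Interferons and their receptors act upstream of these genes. Of the list of interferon ligands, receptors and kinases, 13 of 20 genes were measured above background, with a median of 0.09, and none was 2-fold higher or lower. Ifnb1, interferon beta, had 5.15 in the untreated control, 6.68 with 5-Aza-CdR, 4.34 with control shRNA and 9.72 with the knockdown (0.96). Its value was the highest of the 4 arrays but close to the near-background limit. Il28 (Ifnl3), a type III interferon, had 8.09 and 12.3 (0.40), and the receptor chains Ifnar1 (−0.38) and Ifngr2 (−0.41) were below the tier median.

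Among 25 sensing genes the median was 0.25, with 5 higher (20%, against 1.42% of all genes of these tiers), none lower and 21 above 0. Of the 25, 7 also stood on the interferon-stimulated list. Ifih1 (Mda5), a cytosolic sensor of long double-stranded RNA, had 31.6 with control shRNA and 148 with the knockdown (2.03). Ddx58 (Rig-I), which senses RNA ends, had 70.2 and 179 (1.30), D11Lgp2e (Dhx58, Lgp2) 14.9 and 46.5 (1.44), Adar, which edits double-stranded RNA, 16.4 and 51.5 (1.45), and Ifi203 1.66 and 9.64 (2.34). The control value of Ifi203 lay under the near-background limit, so the size of its ratio rests on a dim spot. All of the higher sensing genes except Ifi203 were on the interferon-stimulated list. The ratio of D11Lgp2e was −0.01 when the local background was subtracted. Among signalling partners, Irf3 at 196 and 188 (−0.10), Tbk1 at 127 and 155 (0.24) and Traf3 at 39.2 and 47.9 (0.09) stayed near the tier median, and Irf7, an interferon-stimulated transcription factor, had 27.7 and 200 (2.65).

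Part of the MHC class I presentation genes were higher with the knockdown. B2m (beta-2-microglobulin, which pairs with the heavy chains) had 3312 in the untreated control, 14585 with 5-Aza-CdR, 1191 with control shRNA and 4268 with the knockdown (1.80). The knockdown stood above both controls but below 5-Aza-CdR. The immunoproteasome subunits Psmb8 (5.04 and 34.1, 2.56), Psmb9 (11.7 and 62.2, 2.21) and Psmb10 (81.8 and 226, 1.42) were higher than with control shRNA. Unlike B2m, they stayed below the untreated control, which had 67.5, 77.8 and 304 in that order. The 32 constitutive proteasome genes had a median of −0.01 with none called in either direction. Of 14 measured genes of the list 4 were higher (28.6%, against 1.42% of all genes of these tiers) and 5 were also on the interferon-stimulated list. The median of 0.67 turned to −0.12 with local background subtracted, when Psmb8 stood at −0.17.

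Chemokine and NF-kB target genes split, with 4 of 24 higher (16.7%, against 1.42% of all genes of these tiers), 1 lower (4.17%, against 1.29%) and a median of 0.29. Besides Cxcl10, the higher genes were Ccl2 (14.1 and 77.9, 2.27), Ccl5 (8.41 and 32.7, 1.76) and the adhesion molecule Vcam1 (16.5 and 54.4, 1.52). Cxcl5, a neutrophil chemokine, was lower at 69.8 and 11.6 (−2.79), with 4.47 in the untreated control and 20.6 with 5-Aza-CdR. The NF-kB inhibitor Nfkbia had 516 and 651 (0.29).

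Bright genes outside the interferon list were also among the highest. Fbxo39, an F-box protein gene, had 34.6 in the untreated control, 685 with 5-Aza-CdR, 106 with control shRNA and 1054 with the knockdown (3.27). 2210415F13Rik (Lypd8), a secreted protein that binds flagellated bacteria in the colon, had 416, 388, 175 and 1540 (3.09). Lypd8 was high only on the knockdown array, whereas Fbxo39 was high on both treated arrays. 2310016F22Rik (Apol9b) had 434, 2036, 119 and 636 (2.37) and 1810023F06Rik (Ifi27l2b) 90.1, 458, 329 and 1627 (2.26), and both are members of families related to interferon-inducible genes. Of all 3897 bright genes, 21 stood on the interferon-stimulated list, 8 on the sensing list and 6 on the MHC list, some on more than 1. Over the middle and bright tiers these were 62, 25 and 14 of 11926 genes. None of the 21 and 133 lower genes of the bright and middle tiers stood on them, and with lists this small nothing is read from that. Of the 38 higher bright genes 18 stood on these lists, as did 30 of 131 higher genes of the middle tier. Among the rest, named after their values were seen, were the opioid growth factor receptor gene Ogfr (113 and 290, 1.32), the placenta-specific gene Plac8 (872 and 2154, 1.26), Trex2, a 3′ exonuclease (240 and 590, 1.25), Gadd45b, a stress gene (223 and 500, 1.11), and the inflammatory caspase Casp4 (173 and 358, 1.01). With the array drift described further on removed, Gadd45b (0.81) and Casp4 (0.70) were under the limit.

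The lowest ratio of the bright tier was that of Car1, a carbonic anhydrase of colonic absorptive cells, which had 15.6 in the untreated control, 4.83 with 5-Aza-CdR, 419 with control shRNA and 80.6 with the knockdown (−2.43). Tff2, a trefoil peptide of mucous cells, had 36.9, 54.2, 1107 and 265 (−2.11), and Aldh3a1, an aldehyde dehydrogenase, 7.62, 64.7, 1194 and 338 (−1.87). In all 3 genes the knockdown value stood between a high control shRNA value and a low untreated value.

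Dctn2, a subunit of the dynein partner dynactin, had 751 in the untreated control, 777 with 5-Aza-CdR, 279 with control shRNA and 90.5 with the knockdown (−1.67), so the knockdown was the lowest of the 4. Ctse, the aspartic protease cathepsin E, had 122, 317, 352 and 120 (−1.60), and the knockdown was close to the untreated level. Gvin1, a very large interferon-inducible GTPase with related copies in the genome, had 279 and 102 at one probe (−1.50) and 235 and 114 at another (−1.08), and both untreated and 5-Aza-CdR values were under 20. Unlike most interferon-inducible genes described here, it was lower with the knockdown.

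Mal, a proteolipid of apical membrane transport, had 20.4 in the untreated control, 131 with 5-Aza-CdR, 707 with control shRNA and 277 with the knockdown (−1.40). Ugt1a6a, a glucuronosyltransferase whose probe may also take signal from its near copies, had 22.1, 13.1, 519 and 206 (−1.38), and Kcne3, a potassium channel subunit, 168, 473, 427 and 178 (−1.31). Mdm2, the ubiquitin ligase of p53, had 227, 364, 317 and 156 (−1.07). Socs2 (−1.16), Tubb2b (−1.16), Tesc (−1.07), Oit1 (−1.07) and Tnfrsf11b (osteoprotegerin, −1.06) completed the 15 lowest.

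The control shRNA culture differed from the untreated control in genes that were lower in the knockdown. Of the 21 lower bright genes, 12 had a control shRNA intensity at least 2-fold above the untreated control and 5 at least 2-fold below, while among all 3897 bright genes 328 were above and 728 below, and among the 38 higher genes 8 were above and 10 below. The same control shRNA value enters both ratios, so a high value there favours a lower call and a place above the untreated control. The share of lower genes above the untreated control is thus partly set by the choice of genes. Vector, selection and days in culture differ between these controls and cannot be told apart.

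In the middle tier 1810030J14Rik (Mptx1), a mucosal pentraxin, had the lowest ratio, with 942 in the untreated control, 511 with 5-Aza-CdR, 266 with control shRNA and 4.06 with the knockdown (−6.23). Its knockdown value was at the near-background limit, so the size of the ratio rests on that spot. 4632417D23Rik (Heg1) had 24 and 3.01 (−3.19), Npffr2 17.4 and 2.25 (−3.15), Sgce 13.6 and 1.89 (−3.04) and Gabrp 94.5 and 13.7 (−2.99). The first 3 of these likewise had knockdown values under the limit.

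Germline genes, many of which are silenced by DNA methylation in somatic cells, were counted next. Of 51 listed genes 16 were measured, with a median of 0.28, 2 higher (12.5%, against 1.42% of all genes of these tiers) and none lower, and nothing is read from a share that rests on 2 genes. Xlr3b, an X-linked gene with near-identical copies, had 763 in the untreated control, 827 with 5-Aza-CdR, 239 with control shRNA and 662 with the knockdown (1.42), so the control shRNA array was low and the other 3 were alike. Nanog, a pluripotency factor, had 5.51 and 12.8 (1.01), near the background limit, and with the array drift removed it stood at 0.72, which left Xlr3b as the only higher germline gene. Tex14 was not called: this germ cell gene had 4.34 and 9.04 (0.86, or −0.25 with local background subtracted). Of 23 imprinted genes, with a median of −0.15, none was higher and 1, Sgce, was lower, and Gnas (0.51) was the highest.

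Of 22 tumor suppressor genes often methylated in tumors, 1 was higher and 3 lower (13.6%, against 1.29% of all genes of these tiers), with a median of −0.13, and 3 genes are too few to read the share. Rassf1, a Ras-association domain protein, had 118 and 283 (1.22, or 0.92 with the array drift removed), Wif1, a secreted Wnt inhibitor, 16.3 and 3.11 (−2.59, with the knockdown value under the near-background limit), Igfbp3 32.6 and 14.7 (−1.35) and Timp3 72.8 and 41.1 (−1.02). Wif1 stood at 1062 in the untreated control and 735 with 5-Aza-CdR, far above both vector cultures.

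Of 17 genes of DNA methylation, with a median of −0.19, Dnmt1 was the only one called. Usp7, a deubiquitinase that stabilizes Dnmt1, had 34.4 and 23.7 (−0.74), Uhrf1, which guides Dnmt1 to hemimethylated DNA, 144 and 219 (0.55), Mbd1, a methyl-CpG binding protein, 125 and 186 (0.53), and the de novo enzymes Dnmt3a 8.5 and 8.2 (−0.25) and Dnmt3b 39.1 and 46.0 (0.04). Of 21 genes of histone-based silencing, Atrx, a chromatin remodeler, was lower at 36.9 and 21.1 (−1.01), none was higher and the median was −0.10.

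**Figure D3:**
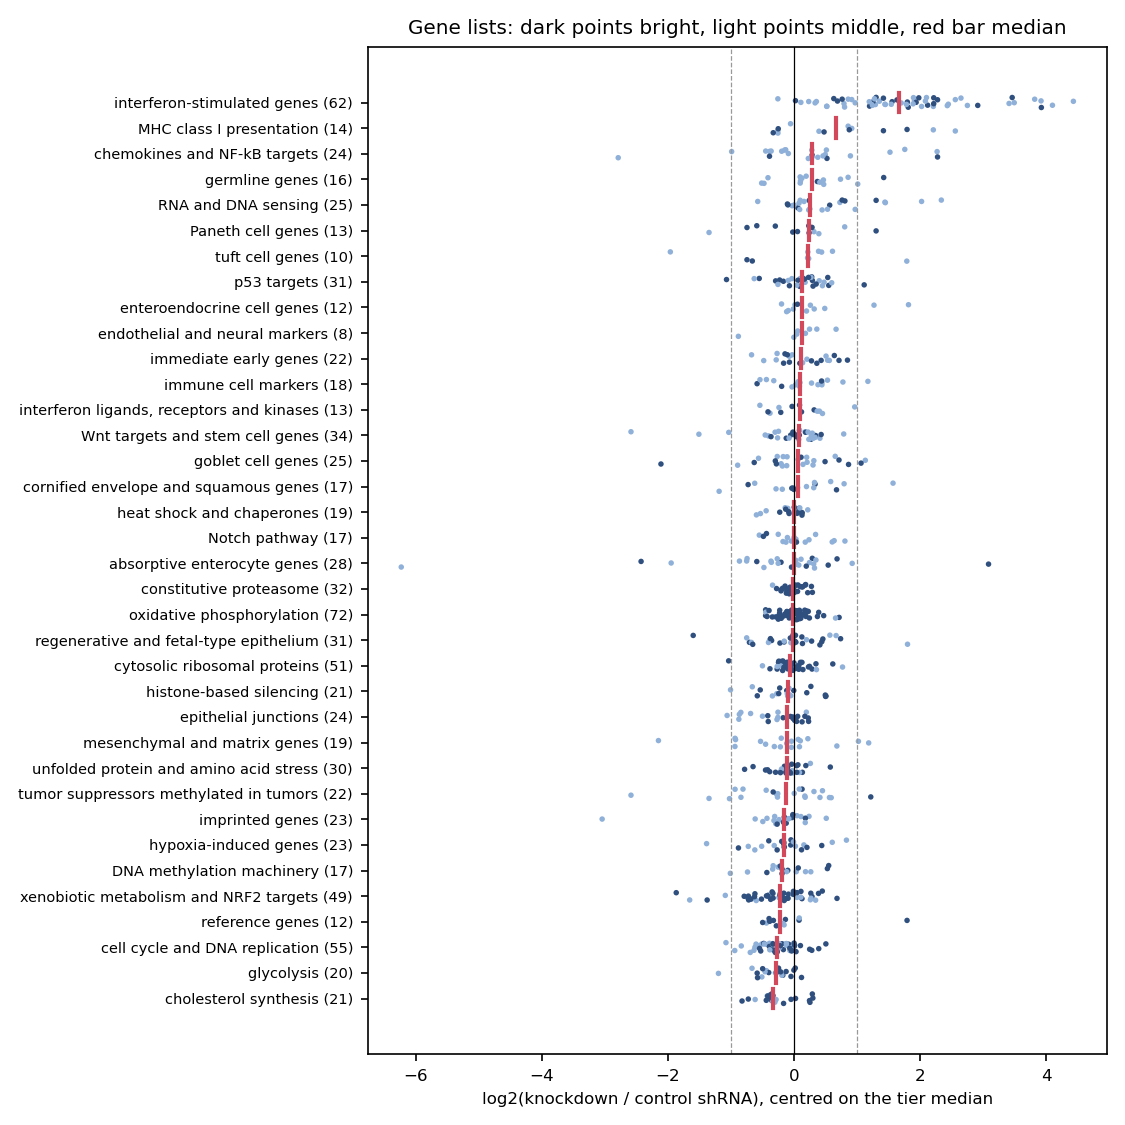
Centred log2 ratio of knockdown over control shRNA (horizontal) for members of 36 gene lists in the middle (light) and bright (dark) tiers, with the number of members in parentheses, red bars at the list medians and dashed lines at 2-fold. The interferon-stimulated list lies far to the right with a median of 1.67, MHC class I follows at 0.67, and all others lie between −0.33 and 0.29.

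Of the 36 list medians, 18 kept their sign in every alternative tried, among them those of the interferon-stimulated, sensing, chemokine, germline, cell cycle, glycolysis, cholesterol and xenobiotic lists. Blocks 1 to 12 and 13 to 24 of the array were compared apart from these alternatives, and the germline median differed in sign between them. The other 18 changed sign in at least 1 alternative, among them the MHC class I, DNA methylation, histone silencing, imprinted, tumor suppressor, hypoxia and tuft cell lists, so no direction is read from them.

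Proliferation genes were slightly below the tier median. Of 55 cell cycle and replication genes 9 were above 0 and the median was −0.27, between −0.35 and −0.16 in the alternatives tried, with only Kif2c, a mitotic kinesin, called lower at 26.1 and 14.2 (−1.08). It stood at −0.92 with the array drift removed, when no gene of the list was called. Ccne2, cyclin E2, had 43.0 and 25.8 (−0.94), Kif20a 72.8 and 46.9 (−0.84) and Mki67, the Ki-67 antigen, 111 and 89.3 (−0.51). Of 20 glycolysis genes 2 were above 0, with a median of −0.29 (between −0.38 and −0.17), and the lactate transporter Slc16a3 was lower at 69.0 and 34.5 (−1.20). Cholesterol synthesis had a median of −0.33 over 21 genes (between −0.39 and −0.08) and none called, with Stard4 at 198 and 116 (−0.82).

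Housekeeping groups other than the reference genes stayed close to 0. The 12 reference genes had a median of −0.23 (between −0.33 and −0.16 in the alternatives tried), with 3 above 0. This is close to the medians of the cell cycle and xenobiotic lists. Oxidative phosphorylation had a median of −0.01 over 72 genes with none called, heat shock genes 0.00 over 19 with none called, and cytosolic ribosomal proteins −0.05 over 51, with Rps4x lower at 11687 and 5885 (−1.04, or −0.96 with the array drift removed) and its paralogues or pseudogenes able to share signal. The unfolded protein list (median −0.12 over 30), immediate early genes (0.12 over 22) and the Notch pathway (0.00 over 17) had none called. Of 31 p53 targets, with a median of 0.14, Gadd45b was higher and Mdm2 lower. With the array drift removed Gadd45b stood at 0.81 and no p53 target was higher, and Cdkn1a, the cell cycle inhibitor p21, had 212 and 268 (0.29).

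Xenobiotic and oxidative stress enzymes leaned lower, with 4 of 49 lower (8.16%, against 1.29% of all genes of these tiers), none higher and a median of −0.22. Beside Aldh3a1 and Ugt1a6a these were Akr1c14, an aldo-keto reductase (33 and 12, −1.65), and Cyp2s1, a cytochrome P450 (81.6 and 44.0, −1.09), while Cyp1a1 was at 503 and 834 (0.68). The median of the list was −0.38 over 24 genes in spot blocks 1 to 12 of the array and −0.01 over 25 in blocks 13 to 24. With the array drift removed it was −0.15. Of 23 hypoxia-induced genes 1 was lower, the collagen hydroxylase P4ha2 at 65.2 and 28.6 (−1.39), and the median was −0.16.

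Differentiation markers past the 2-fold limit stood on both sides. For lists with only 1 or 2 genes called in a direction, here, above and below, no share is read. Among all genes of these tiers 1.42% were higher and 1.29% lower. Of 28 absorptive enterocyte genes 1 was higher (Lypd8) and 3 were lower (10.7%, against 1.29% of all genes of these tiers), too few to read the share. The median was 0.00. The lower genes were Mptx1, Car1 and 9030623C06Rik, which is keratin 20, at 92.1 and 27.4 (−1.95). Another probe of keratin 20, named Krt21 on the array and counted under that symbol, had 54.5 and 78.4 (0.33), so its probes disagreed. Fatty acid binding proteins of these cells, Fabp1 (−0.04, with 995 in the control) and Fabp2 at 483 and 726 (0.54), were not called. Of 25 goblet cell genes Tff3 was higher at 1535 and 3314 (1.06), Clca3 at 7.15 and 18.0 (1.13, or −0.52 with local background subtracted), and Tff2 lower, while the mucin Muc2 had 46.0 and 48.8 (−0.11). Tff3 had 3362 in the untreated control and 757 with 5-Aza-CdR, so its knockdown value was close to the untreated level.

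Pla2g2a, an antimicrobial phospholipase of Paneth cells, had 11975 in the untreated control, 9505 with 5-Aza-CdR, 138 with control shRNA and 352 with the knockdown (1.30), and Habp2, the other called Paneth gene, 26.2 and 11.8 (−1.35). Both vector cultures were far below the untreated and 5-Aza-CdR cultures in Pla2g2a. The granins of enteroendocrine cells, Chgb (28.4 and 115, 1.82) and Chga (5.81 and 16.1, 1.27), were higher. Of the 12 measured genes of that list they were the only 2 called higher (16.7%, against 1.42% of all genes of these tiers), too few to read the share. The median was 0.13, with 8 above 0. None was called lower, and with 12 genes nothing is read from that. Of 10 tuft cell genes Avil was lower at 130 and 38.2 (−1.96) and Rgs13 higher at 3.23 and 12.8 (1.79, with the control value under the near-background limit), while the defining Dcamkl1 (Dclk1) stood at 2.97 and 5.21 (0.61).

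Of 34 Wnt target and stem cell genes none was higher and 3 were lower (8.82%, against 1.29% of all genes of these tiers), too few to read the share. They were Wif1, 5730593N15Rik (Notum), a Wnt deacylase, at 63.0 and 25.4 (−1.51), and Lgr4, an R-spondin receptor, at 6.19 and 3.47 (−1.03). The knockdown values of Wif1 and Lgr4 lay under the near-background limit. The other probe of Notum had 20.1 and 20.3 (−0.18), so its probes disagreed. The stem cell markers Lgr5 at 15.2 and 18.6 (0.09), Ascl2 at 357 and 338 (−0.12) and Olfm4 at 105 and 131 (0.27) stayed near the tier median, and Lgr5 had 292 in the untreated control and 203 with 5-Aza-CdR. Regenerative genes had a median of −0.01 over 31, with Ctse lower and 1810036H07Rik (Gkn2), at 2.35 and 9.41 (1.80, or −0.12 with local background subtracted), higher from a control value under the near-background limit. Cornified genes had a median of 0.06 over 17, with Dsc3 higher at 10.8 and 36.7 (1.57) and Sprr3 lower at 11.9 and 5.99 (−1.19, or 0.90 with local background subtracted). Of 24 junction genes 1, Cldn15, was lower at 88.8 and 48.9 (−1.06, or −0.99 with the array drift removed).

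The cultures read as epithelial on both arrays. Tacstd1 (Epcam) had 3466 with control shRNA and 2684 with the knockdown (−0.41), Cdh1 968 and 1093 (0.13) and Vil1 407 and 481 (0.20). Of 35 immune cell markers 23 had values on both arrays and 18 lay above background. All 31 genes of this list on the array had a summed intensity of 9905 and 13524. Most of it came from Ly6c at 9006 and 12602, which is not specific to immune cells. Of the 18 markers above background S100a9 was higher at 35.7 and 92.5 (1.17). The pan-leukocyte gene Ptprc lay near background at 2.41 and 4.84, and Cd3e, Emr1 and Itgam had no value on either array. Mesenchymal genes had none in the bright tier and 19 above background, and all 39 on the array had a summed intensity of 355 and 337. Vim was lower at 39.7 and 10.3 (−2.15). Lum (2.94 and 7.68, 1.19) and Fap (3.51 and 8.19, 1.02) were higher from control values under the limit. Fap stood at 0.97 with the array drift removed. Col1a1 and Des were near background. Of the endothelial and neural markers 8 lay above background, all 18 on the array summed to 160 and 194, and Pecam1 had no value on either array. The part of other cells in the interferon-stimulated genes was not tested.

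Ratios drifted across the array. In its 24 spot blocks the median of bright probes ran from −0.19 in block 1 to 0.30 in block 23. In blocks 1 to 12, 13 bright probes were higher and 17 lower of 1930, and in blocks 13 to 24, 25 were higher and 5 lower of 1993. After the median of each block was subtracted, an alternative added once the drift was seen, the counts were 14 and 10 in the first blocks and 17 and 5 in the others. The interferon-stimulated genes did not follow the drift, with medians of 1.56 over 31 genes in blocks 1 to 12 and 1.70 over 31 genes in blocks 13 to 24. The median of the enterocyte list, by contrast, was −0.59 over 7 genes in the first blocks and 0.11 over 21 in the others, and that of the DNA methylation list −0.23 over 10 and 0.18 over 7. Other lists differed too, among them the germline list (−0.15 over 6 and 0.44 over 10) and the xenobiotic list (−0.38 over 24 and −0.01 over 25). With block medians removed, 47 interferon-stimulated genes were higher and none lower. Among the bright genes named above, Tesc (−0.94) and Tnfrsf11b (−0.98) then fell short of the 2-fold limit, as did Gadd45b, Casp4, Rassf1 and Rps4x. Of the 38 higher and 22 lower bright probes, 30 and 14 stayed past the limit.

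**Figure D4:**
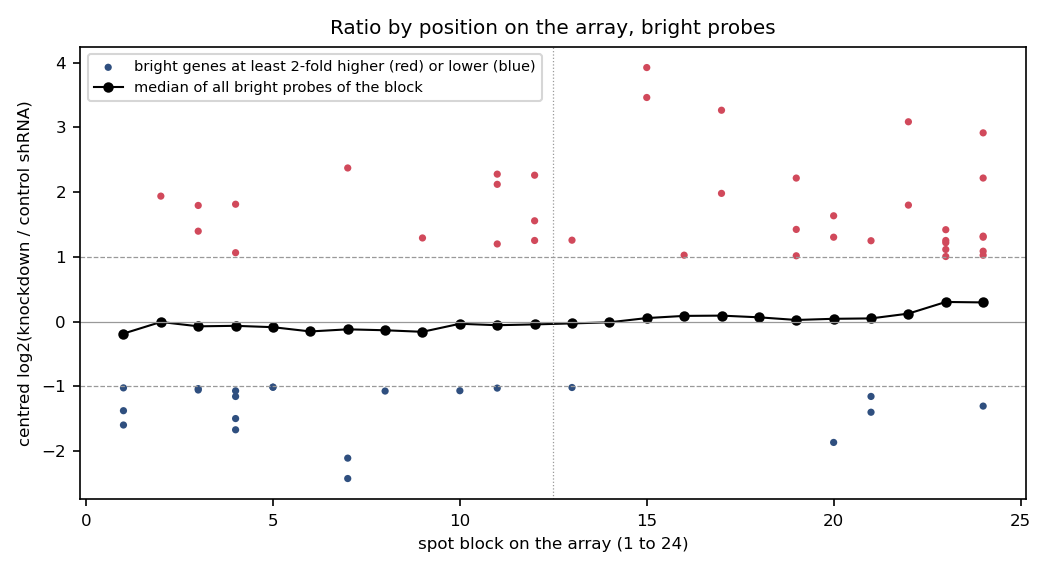
Median centred log2 ratio of all bright probes in each of the 24 spot blocks (black line) with the bright genes at least 2-fold higher (red) and lower (blue) at their block. The median moves from −0.19 in block 1 to 0.30 in block 23, while most lower genes lie left of the dotted line between blocks 12 and 13.

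Probes with a value on 1 array only were mostly dim. On the knockdown array alone 694 named probes had a value, with a median of 1.85 and 96.1% at or under the near-background limit, and on the control shRNA array alone 145, with a median of 1.49 and 97.2% under it. The brightest on the knockdown side was Gss, glutathione synthetase, at 660, whose control spot carried a quality flag, and it had 490 in the untreated control and 555 with 5-Aza-CdR. Next were Rpe65 at 18.1, C130076O07Rik (Nrcam) at 10.4, Herc5 (Herc6), an interferon-inducible ligase, at 9.53 and Oas3 at 7.99. On the control side stood AW146299 (Kpna7) at 41.5, Tas1r2 at 29.7, Slc14a1 at 4.68, Il1r1 at 3.98 and Fcna at 3.56. No fold is given for these genes.

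At the limits used, Casp4 and 1500032H18Rik (Mitd1) lay just inside the 2-fold limit at 1.01 and 1.02, and Tsen54 and Kcnh6 just outside at 0.997 and 0.989. Among lower genes S100g and Ltb4dh (Ptgr1) lay just inside at −1.01 each, and Npal2 (−0.97) and Ugt2b5 (−0.98) just outside. By chromosome, the share of higher genes ran from 0.691% on chromosome 4 to 2.58% on chromosome 16, against 1.42% of all genes of these tiers. The largest share of lower genes was 2.88% on the X chromosome, 10 of 347 genes, against 1.29%.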

How the data were processed

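RNA of each culture was labelled with Cy5 and hybridized to 1 Toray array, and the methods name a mirVana kit for RNA extraction where the sample labels name an RNeasy kit. The deposited unit is an intensity, made by the authors by subtracting the mean blank spot from each spot and scaling every array to a median of 25. A recalculation from the spot signals, with 5% of blank spots trimmed at each end, came within 1% of 99.99% of the deposited values on each array, and values near the blank level had been left empty. Image analysis software and version are not given in the sources used here.

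Log2 ratios of the knockdown over the control shRNA array were taken per named probe and centred on the median of the tier. Calls required a centred 2-fold difference. Where several probes named a gene, the one with the highest geometric mean stood for it. Genes were counted by array symbol, so one with several symbols, such as Krt20 or Gbp4, counted under each. Symbols are those of the array, with the current name in parentheses, and 16384 of 16446 matched RefSeq. Named genes were Dnmt1, the 15 highest and 15 lowest genes of the bright tier, the 5 highest and 5 lowest of the middle tier, the 5 brightest with a value on 1 array only, the 4 largest differences of each list, Actb, Gapdh and Tbp. Genes named beyond these were chosen after their values were seen. The comparison, the 36 gene lists and the rules were chosen with earlier results of these data known.

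Alternatives were normexp (offset 50 or 16) with quantile normalization, subtraction of local background, other centring, tier and fold limits, and medians of array blocks, the last chosen after seeing the data. The ratio, tier and centring steps were checked on simulated data with an equal shift at all intensities and changes in bright probes only. That check did not cover calls of dim probes, gene lists, promoters or the drift over the array. Python 3.11.15, numpy 2.4.6, pandas 2.3.3, matplotlib 3.10.9, R 4.3.3 and limma 3.58.1 were used. The number of arrays limits the precision.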

Additional observations from a re-analysis of the deposited data

Results flagged for a closer look

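Probes without a gene name took no part in the comparison, and 1117 of them were bright, with a geometric mean of at least 100. Of these, 17 passed the 2-fold limit upward and 4 downward with Dnmt1 knockdown. The largest centred log2 ratio among them was 3.65, with intensities of 53.7 with control shRNA and 695 with the knockdown, and the lowest was −2.28, with 337 and 71.4. The genes these probes measure were not identified here.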

How the results depend on the processing

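With 1 array per condition no call has replicate support. The main counts were 38 bright probes higher and 22 lower, and 133 and 134 in the middle tier. Normexp correction with offset 50 over 4 arrays gave 30 and 11 bright and 17 and 8 middle probes, over the compared pair of arrays 30 and 9 bright and 15 and 7 middle, and offset 16 gave 39 and 36 middle probes. Offsets shrink the ratios of dim probes by construction. Subtraction of local background gave 345 and 521 bright and 534 and 940 middle probes and left 578 probes without a ratio, while log spot signal and log local background correlated at 0.95 and 0.92 across spots of an array. Without centring the middle tier held 228 and 76. A bright limit of 200 gave 20 and 13 bright probes. A limit of 1.5-fold gave 129 and 100 bright and 502 and 532 middle probes, and one of 3-fold 17 and 5 bright and 35 and 31 middle. With unnamed probes included, 222 middle probes were higher. Dnmt1 had −0.64 with normexp over the compared pair and −1.91 with local background. All 38 higher and 22 lower bright probes kept their sign in each alternative except local background, where 35 and 18 did.

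Of 36 list medians, 18 changed sign in at least 1 alternative, such as tuft cell genes (−0.36 to 0.43). Signs turned with local background for MHC class I genes (median −0.12), and for Socs1 (−0.20), D11Lgp2e (−0.0133), Psmb8 (−0.17), Tex14 (−0.25), Tpx2 (0.21), Clca3 (−0.52), Vsig1 (1.40), 1810036H07Rik (−0.12), Sprr3 (0.90), Atp5g3 (−0.0245), Psmd3 (0.055), Hspb8 (0.060), Scd2 (0.066), Cldn18 (0.16), Vwf (−0.17) and Sdha (0.043), and with block medians for Psmc1 (−0.0037). The cause was not tested. In 426 cases a list median moved by no more than the SD between probes of a gene and in 5 by more, small changes of sign included, and a named gene in 1318 and 330 cases. For lists this was the SD of the middle tier, 0.35. Every list median except the interferon-stimulated and MHC class I ones was smaller in size, so the 426 cases do not show stability. No paired analysis was possible because each condition had 1 array.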
